A study of Homo sapiens with 6 samples.

Results

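The aminoacyl-tRNA synthetases were followed as a set of 35 listed genes, 19 for cytosolic and 16 for mitochondrial enzymes, out of 60708 genes in each count table of an Ago-RIP-seq experiment. The list was drawn up by enzyme name and did not use any measured value, though earlier results of these data were known. The question put to it was how transcripts of the cytosolic enzymes compare with those of the mitochondrial enzymes in RNA precipitated with Argonaute 2 (AGO2). MDA-MB-231 cells, an established human line of triple-negative breast cancer, received either a mimic of miR-99b-5p or a scrambled control oligonucleotide, both at 25 nM, and were harvested after 18 h. AGO2 was immunoprecipitated from the lysate, and RNA was sequenced from the precipitate (AGO2-IP) and from the flow-through, which is what the antibody beads left behind. The 6 libraries are a control flow-through, a control AGO2-IP, 2 mimic flow-through and 2 mimic AGO2-IP libraries, so tests were possible within the mimic cells only. None of them is from a precipitate with a control antibody (IgG), so RNA held by the beads without AGO2 cannot be told apart.

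Each aminoacyl-tRNA synthetase joins a given amino acid to its tRNAs, and the charged tRNA then carries that amino acid to the ribosome. Nuclear genes encode separate enzymes for the cytosol and for the mitochondrial matrix, where the few proteins of the mitochondrial genome are made, while GARS1 and KARS1 each serve both compartments from a single gene. EPRS1 fuses the glutamyl and prolyl enzymes in a single chain, FARSA and FARSB are the different subunits of the cytosolic phenylalanyl enzyme, and several cytosolic enzymes sit together in the multisynthetase complex. In the RNA-induced silencing complex AGO2 holds a miRNA whose seed, bases 2 to 8, pairs with matching bases in target mRNAs, most effectively in the 3′ UTR.

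The transfected miRNA and its few matches among the synthetase transcripts are shown first, since a match in a transcript is the sequence feature by which a mimic could recruit it. Mature miR-99b-5p is 22 bases long and is encoded at chr19:51692618-51692639 on the plus strand (GRCh38.p14, RefSeq), and its seed is printed in capitals.
miR-99b-5p: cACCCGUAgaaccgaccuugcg
The DNA letters that pair with bases 2 to 7 of the miRNA are ACGGGT, and they were searched on the transcript strand of the representative GENCODE transcript of each gene. Longer matches add T before them (TACGGGT, pairing with base 8) or A after them (ACGGGTA), and both contain the 6-base match. The 6 bases occurred in 6 of the 35 members (17.1%), against 17.1% of the 11747 protein-coding genes tested, whose transcripts differ in length from those of the members. FARSB and QARS1 held a 7-base match (2 of 35 members, 5.71%, as among all those genes), and WARS1 held the only match in a 3′ UTR (2.86% of members, against 6.67% of those genes). The sites of these 3 genes are given 5′ to 3′ on the transcript strand, with the bases that match in capitals.
FARSB: cagtgtataaACGGGTAatgcctgat
QARS1: tggagtcacTACGGGTcatcatcacc
WARS1: gtgtccctggACGGGTggacttagct
The FARSB site lies in the coding sequence at chr2:222640895-222640920, the QARS1 site in the coding sequence at chr3:49099128-49099153 and the WARS1 site in the 3′ UTR at chr14:100333986-100334011, all on the minus strand of GRCh38. CARS1, YARS1 and CARS2 each carried a 6-base match in the coding sequence, and the CARS1 match lies across or next to an exon junction. None of the genes with the highest AGO2-IP values described below holds the 6 bases in the transcript searched.

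The libraries differed strongly in depth and make-up. Gene counts were 7772149 and 8076375 in the control flow-through and AGO2-IP, and 38022779 to 48544756 in the 4 mimic libraries. RNA from the mitochondrial genome took 43.4% of the counts of the control flow-through and 3.48% of those of the control AGO2-IP, but at most 0.125% in the mimic libraries, so levels in the control libraries are shares of a different whole. Of all read pairs 92.3 and 95.0% in the control libraries fell outside single genes, most of them in several places of the genome (73.7 and 76.7%), against 21.4 to 47.2% in the mimic libraries (2.38 to 19.2% in several places). The fractions of the control libraries are those of their labels, while the study's supplement lists both as control replicates without a fraction, and the part of these differences in the control ratios below was not tested. The mimic flow-through libraries stood further apart (SD of the log2 difference 1.44 over genes) than the mimic AGO2-IP libraries (0.84). Markers of the line were present: VIM, CD44, KRT18, KRT8 and AXL ranged from 59.0 to 2729 CPM, a gene's counts per 1000000 gene counts, whereas PTPRC, ESR1 and PGR, which the line should lack, reached at most 1.86 CPM. All values are from bulk fractions, in which less RNA per cell and fewer cells of a kind cannot be told apart.

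All 35 synthetase genes had counts in at least 5 of the 6 libraries, and 34 of them passed the minimum of 200 summed counts in the 4 mimic libraries. VARS2 was the exception, with 11 and 7 counts in the mimic flow-through libraries and with 2 and 1 in the mimic AGO2-IP. All bases of its transcript (100%) are shared with a read-through gene on the same strand, and 77.5% of the SARS2 transcript is shared with another one, and a read that fits 2 genes was not counted for either. The counts of VARS2 and SARS2 therefore say little about the level of their mRNAs. Among the other members, at most 18.3% of a transcript is shared with any other gene, for YARS2, and the libraries carry no strand information.

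Per kilobase of transcript, the cytosolic enzymes were the more abundant class in every library. In the mimic flow-through FARSA (phenylalanyl, alpha subunit) led with 91.1 and 95.1 CPM per kilobase in the 2 libraries, followed by SARS1 (seryl) with 85.3 and 86.3. TARS1 (threonyl) came next by its mean, but its values of 106 and 55.1 CPM per kilobase span those of both. In the mimic AGO2-IP the order was different, with TARS1 first at 325 and 274, HARS1 (histidyl) next at 303 and 239, and RARS1 (arginyl) at 224 and 201 CPM per kilobase. By mean CPM per kilobase HARS1 was 12th in the flow-through and 2nd in the AGO2-IP, RARS1 16th and 3rd, and VARS1 (valyl) 4th and 20th. The median mitochondrial enzyme stood at 6.08 and 6.71 CPM per kilobase in the mimic flow-through and at 7.23 and 7.35 in the mimic AGO2-IP, whereas the median cytosolic enzyme stood at 41.2 and 30.5 and at 100.7 and 66.8.

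Summed over the genes of a class, both classes took a larger share of the AGO2-IP than of the flow-through, in mimic and in control cells. Cytosolic enzymes summed to 2490 and 1943 CPM in the mimic flow-through libraries and to 5624 and 4868 CPM in the AGO2-IP of the same cells. In control cells the sums were 1328 CPM in the flow-through and 3898 CPM in the AGO2-IP. Mitochondrial enzymes summed to 439 and 437 CPM in the mimic flow-through, 928 and 926 CPM in the mimic AGO2-IP, and 249 and 872 CPM in the control pair. Without mitochondrially encoded genes in the total, the control sums were 2348 and 4038 CPM for the cytosolic and 439 and 903 CPM for the mitochondrial enzymes. The groups did not overlap in the mimic cells, at 2.38-fold for the cytosolic and 2.12-fold for the mitochondrial sum, but 2 libraries against 2 cannot go below p = 0.333 in a two-sided exact permutation test, which is what both gave. The ratio of cytosolic to mitochondrial counts overlapped between the fractions, with 5.68 and 4.44 in the flow-through and 6.06 and 5.26 in the AGO2-IP (exact permutation p = 0.667). A single gene, IARS2 (mitochondrial isoleucyl), made up 49.1% and 53.1% of the mitochondrial counts in the mimic AGO2-IP, against 35.1% and 19.9% in the mimic flow-through. IARS2 and HARS2 (18.4 and 18.7 CPM in the mimic flow-through, 135 and 91.9 CPM in the mimic AGO2-IP) carried most of the mitochondrial rise in mimic cells. Of the 15 mitochondrial genes tested there, 9 had a log2 fold change above 0 and 6 below 0, so the sum does not describe the class gene by gene.

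Gene by gene, the mimic AGO2-IP was compared with the mimic flow-through by edgeR's quasi-likelihood test over 13078 genes, in which a gene was called where it differed by 1 or more on the log2 scale, up or down, and its Benjamini-Hochberg adjusted p did not exceed 0.05. The median log2 fold change was 0.97 over the 19 cytosolic enzymes and 0.24 over the 15 mitochondrial enzymes tested, beside -0.11 over all genes. None of the 34 synthetase genes was called (background 0.245% higher and 0.413% lower), while 10 (29.4%) had an unadjusted p under 0.05, near the 23.8% of all genes, with 9 of them higher in the AGO2-IP (10.6% of all genes) and VARS1 lower (13.1%). With the replicate number as a block, which pairs the AGO2-IP and flow-through of a biological replicate, 6 genes were called higher and 0 lower, where 4.60% of all genes were called higher and 5.08% lower. The 6 were HARS1, RARS1, LARS1, NARS1 and TARS1 among the cytosolic enzymes and HARS2 among the mitochondrial ones. PyDESeq2, the tool of the study, called these and AARS1, EPRS1 and IARS2, 9 higher and 0 lower in all, where it called 6.46% of all genes higher and 8.24% lower. For each of the 6 genes called with the block, the SE was larger with it than without (HARS1 0.75 and 0.62, NARS1 0.73 and 0.60). Their lower adjusted p values therefore did not come with narrower estimates. For HARS1 the unadjusted p of edgeR's quasi-likelihood test went from 0.000457 to 3.94e-05 while the SE rose. The block leaves little of the 4 libraries to estimate a gene's own spread from, so its p values rest largely on a spread pooled over genes. The calls also depended on single libraries. The fit without mimic flow-through 1 called 11 synthetase genes higher and VARS1 and EARS2 lower, but 20.2% of all genes higher and 20.6% lower, the fit without flow-through 2 called 5 higher and 0 lower where 1.90% and 3.40% of all genes were, and the fits without either AGO2-IP library called 0. The distance between the classes moved too, with medians of 0.69 (cytosolic) and -0.21 (mitochondrial) without flow-through 1 but 0.90 and 0.75 without flow-through 2.

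Counted without a test, a log2 fold change of at least 1 was found for 13 of the 34 genes (38.2%, against 20.0% of all genes) and one of at most -1 for VARS1 alone (2.94%, against 26.9%). Both AGO2-IP libraries lay above both flow-through libraries for 17 of the 34 (12 cytosolic and 5 mitochondrial), where 28.1% of all genes did so, and below both for 5 (KARS1, VARS1, EARS2, FARS2 and SARS2), where 28.5% did. The plot of log2 fold changes by class shows these values for each gene.

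**Figure D1:**
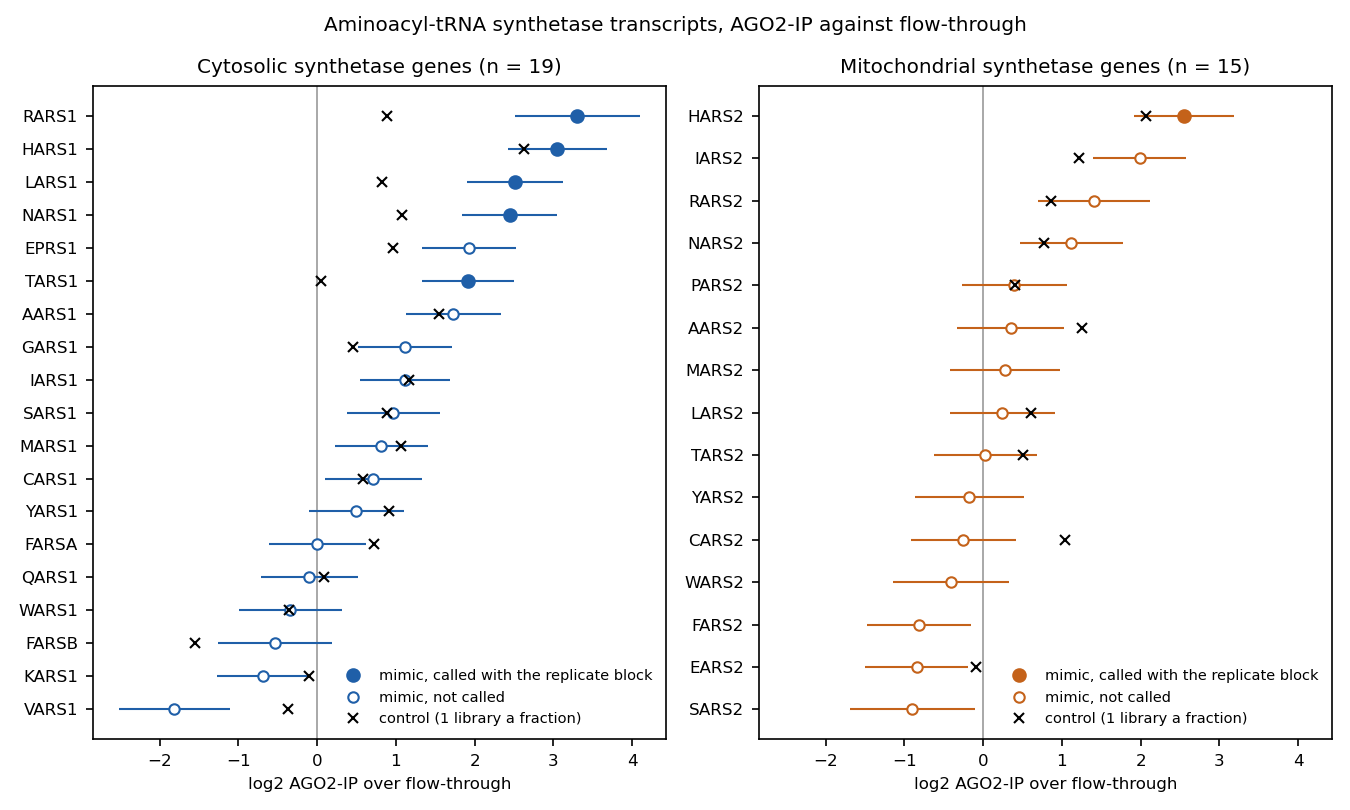
Log2 ratio of AGO2-IP over flow-through for the 19 cytosolic (left) and 15 mitochondrial (right) synthetase genes tested, with circles and bars for the edgeR estimate ± SE in mimic cells (2 libraries a fraction), filled circles for genes called with the replicate block, and crosses for the ratio in control cells (1 library a fraction, TMM-normalized). RARS1 and HARS1 lie highest at 3.30 and 3.05 and VARS1 lowest at -1.81, and 5 genes of the mitochondrial panel have too few control counts for a cross.

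HARS1 encodes the cytosolic histidyl-tRNA synthetase. It had 2849 and 2980 counts in the mimic flow-through libraries and 27610 and 17716 counts in the matching AGO2-IP, which is 60.6 and 61.4 CPM against 591 and 466 CPM (61.0 ± 0.544 and 528 ± 88.2, mean ± SD, n = 2). The flow-through libraries were almost equal and both AGO2-IP libraries lay far above them. The log2 fold change was 3.05 ± 0.62 (SE), 8.29-fold, with an adjusted p of 0.0543 by edgeR's quasi-likelihood test. With the replicate block the same test gave 3.07 ± 0.75 (SE) and an adjusted p of 0.00247. The control cells had 170 counts (21.9 CPM) in the flow-through and 2031 counts (251 CPM) in the AGO2-IP, a log2 ratio of 2.62 after TMM normalization.

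HARS2, the mitochondrial histidyl enzyme, is the neighbour of HARS1 on chromosome 5 (HARS1 at chr5:140673035-140691537 on the minus strand, HARS2 at chr5:140691430-140699305 on the plus strand, GRCh38), and the genes start from opposite strands of a shared interval. HARS2 had 866 and 907 counts in the mimic flow-through and 6324 and 3493 in the mimic AGO2-IP (18.4 and 18.7 CPM against 135 and 91.9 CPM). As for its neighbour, the flow-through libraries were close together and the AGO2-IP libraries well above. Its log2 fold change was 2.55 ± 0.63 (SE; edgeR adjusted p = 0.0704, and 0.0178 with the replicate block), and control cells showed 59 counts (7.59 CPM) against 484 (59.9 CPM), a log2 ratio of 2.06. HARS1 and HARS2 thus had the highest control ratios of their classes as well. Of the HARS2 transcript 9.52% is shared with HARS1 or with ZMAT2, and reads in the shared interval were counted for neither gene.

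RARS1, the cytosolic arginyl enzyme and a member of the multisynthetase complex, had the largest log2 fold change of the set and the least even flow-through. Its counts were 4107 and 624 in the mimic flow-through libraries (87.4 and 12.9 CPM), and 22239 and 16184 in the AGO2-IP of the same replicates (476 and 426 CPM). Flow-through 2 was low, and flow-through 1 still lay below both AGO2-IP libraries, so the log2 difference was 2.62 within replicate 1 and 4.79 within replicate 2. The fitted value was 3.30 ± 0.80 (SE; edgeR adjusted p = 0.0656) without and 3.71 ± 0.80 (adjusted p = 0.000461) with the replicate block. In control cells RARS1 had 230 counts (29.6 CPM) in the flow-through and 822 (102 CPM) in the AGO2-IP, a log2 ratio of 0.89.

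LARS1, the cytosolic leucyl enzyme, is also part of that complex. It gave 5091 and 2602 counts in the mimic flow-through (108 and 53.6 CPM) and 18915 and 19034 in the mimic AGO2-IP (405 and 501 CPM), a log2 fold change of 2.51 ± 0.61 (SE; edgeR adjusted p = 0.0683, 0.0139 with the replicate block). Even the lower AGO2-IP library was above the higher flow-through library, and the control ratio was 0.83, from 299 counts (38.5 CPM) and 1024 counts (127 CPM). NARS1, the cytosolic asparaginyl enzyme, gave 4994 and 3202 counts in the mimic flow-through and 23498 and 16542 in the mimic AGO2-IP (106 and 66.0 against 503 and 435 CPM). Its log2 fold change was 2.44 ± 0.60 (SE; edgeR adjusted p = 0.0685, 0.0161 with the replicate block), and control cells had 367 counts (47.2 CPM) and 1498 counts (185 CPM), a log2 ratio of 1.08. For NARS1 too the groups did not overlap, and the differences within replicate 1 and replicate 2, 2.42 and 2.47, were nearly equal.

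TARS1, the cytosolic threonyl enzyme, had the highest mean level per kilobase of the set in the mimic AGO2-IP. It had 13294 and 7141 counts in the mimic flow-through (283 and 147 CPM) and 40604 and 27857 in the mimic AGO2-IP (869 and 733 CPM). The log2 fold change of 1.92 ± 0.59 (SE) had an edgeR adjusted p of 0.103, and of 0.0499 with the replicate block, just inside the threshold. EPRS1 had a nearly equal value, 1.93 ± 0.59, with an adjusted p of 0.068 with the block, just outside it. The control ratio of TARS1 was 0.05 (1636 counts and 210.5 CPM in the flow-through, 3269 counts and 405 CPM in the AGO2-IP), or 0.94 with library size alone, which moved the median of all genes from 0.01 to 0.89, and its difference from the mimic cells was not tested.

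**Figure D2:**
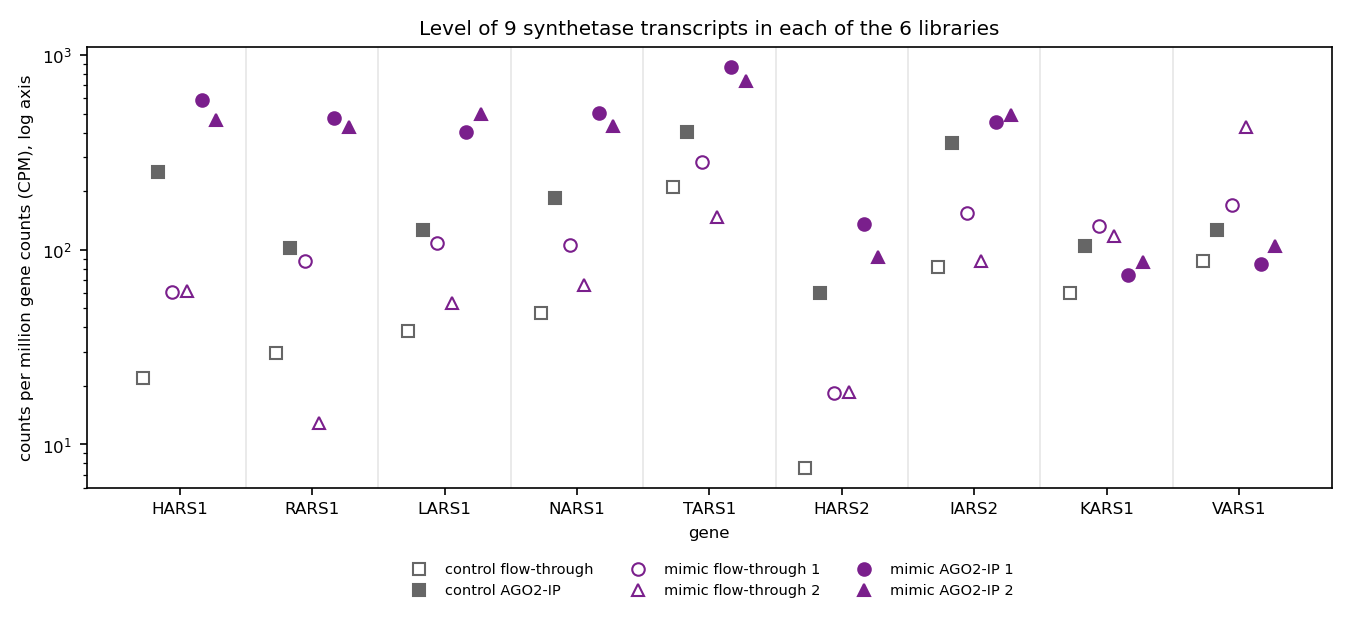
Level of 9 synthetase transcripts in each library, in CPM on a log axis, with open symbols for flow-through, filled symbols for AGO2-IP, squares for control and purple circles and triangles for mimic replicates 1 and 2. The 6 genes called with the replicate block and IARS2 have both filled purple symbols above both open purple symbols, whereas KARS1 and VARS1 have them below, and VARS1 and RARS1 show the widest gap between the mimic flow-through libraries.

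At the other end of the cytosolic enzymes stood VARS1, KARS1 and FARSB, none of which was called. VARS1, the valyl enzyme, had 7952 and 20753 counts in the mimic flow-through (169 and 428 CPM) and 3964 and 3972 in the mimic AGO2-IP (84.8 and 104 CPM), a log2 fold change of -1.81 ± 0.71 (SE; edgeR adjusted p = 0.159, 0.151 with the replicate block). Both AGO2-IP libraries were lower, but the gap was -0.82 within replicate 1 and -2.29 within replicate 2, where flow-through 2 was high. Its control counts were 678 (87.2 CPM) in the flow-through and 1015 (126 CPM) in the AGO2-IP, a log2 ratio of -0.36 that turned to 0.53 when only the library size was used for scaling.

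KARS1, the lysyl enzyme of cytosol and mitochondria, had 6263 and 5736 counts in the mimic flow-through and 3461 and 3290 in the mimic AGO2-IP (133 and 118 against 74.0 and 86.5 CPM). The groups did not overlap, at a log2 fold change of -0.69 ± 0.58 (SE; edgeR adjusted p = 0.486), and the control counts of 466 (60.0 CPM) and 840 (104 CPM) gave a ratio of -0.10, or 0.79 with the library size alone. GARS1, the glycyl enzyme and the other gene that serves both compartments, lay on the opposite side, with 8272 and 3612 counts in the mimic flow-through and 11973 and 10274 in the mimic AGO2-IP (176 and 74.4 against 256 and 270.2 CPM). Its log2 fold change was 1.12 ± 0.60 (SE; edgeR adjusted p = 0.273) and its control ratio 0.46, from 1126 and 2989 counts (145 and 370.1 CPM). The dual-compartment genes therefore did not share a direction, and neither was called.

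The subunits of the phenylalanyl enzyme, which work as a complex of both, also had unlike values, and their difference was not tested. FARSB had 2858 and 649 counts in the mimic flow-through (60.8 and 13.4 CPM) and 824 and 1129 in the mimic AGO2-IP (17.6 and 29.7 CPM), so that its groups overlapped at a log2 fold change of -0.53 ± 0.73 (SE; edgeR adjusted p = 0.678). Its control ratio of -1.55, from 185 counts (23.8 CPM) in the flow-through and 120 (14.9 CPM) in the AGO2-IP, was the lowest of the set. FARSA had 7758 and 8362 counts in the mimic flow-through and 11085 and 4523 in the mimic AGO2-IP (165 and 172 against 237 and 119 CPM), a log2 fold change of 0.0042 ± 0.61 (SE), and 385 and 1225 counts (49.5 and 152 CPM) in control cells, a ratio of 0.72. The FARSA transcript has a GC content of 61.3% and the FARSB transcript of 40.0%, near the opposite ends of the set. With the GC trend removed their log2 fold changes were 1.04 and -1.11, further apart than without the removal, and neither was called.

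Among the mitochondrial enzymes, IARS2 and RARS2 followed HARS2. IARS2 had 7231 and 4235 counts in the mimic flow-through and 21315 and 18695 in the mimic AGO2-IP (154 and 87.2 against 456 and 492 CPM), a log2 fold change of 1.99 ± 0.59 (SE; edgeR adjusted p = 0.097, 0.0517 with the replicate block), and 637 and 2867 counts in control cells (82.0 and 355 CPM, ratio 1.22). RARS2, the arginyl enzyme, had 1192 and 318 counts in the mimic flow-through and 2153 and 1273 in the mimic AGO2-IP (25.4 and 6.55 against 46.1 and 33.5 CPM), a log2 fold change of 1.41 ± 0.71 (SE; edgeR adjusted p = 0.248), and 77 and 271 control counts (9.91 and 33.6 CPM, ratio 0.86). As with RARS1, flow-through 2 held the lowest value of the 4 mimic libraries, and the AGO2-IP libraries lay above both flow-through libraries.

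SARS2, EARS2 and FARS2 had the lowest mitochondrial values, and for all 3 both AGO2-IP libraries lay below both flow-through libraries. SARS2 (seryl) had 126 and 100 counts in the mimic flow-through and 57 and 52 in the AGO2-IP (2.68 and 2.06 against 1.22 and 1.37 CPM; log2 fold change -0.90 ± 0.79, SE), with 9 and 18 counts (1.16 and 2.23 CPM) in control cells, under the minimum for a ratio. EARS2 (glutamyl) had 1416 and 2070 counts against 1002 and 835 (30.1 and 42.6 against 21.4 and 22.0 CPM; log2 fold change -0.85 ± 0.65, SE), with 139 and 251 control counts (17.9 and 31.1 CPM). FARS2 (phenylalanyl) had 1091 and 681 counts against 505 and 391 (23.2 and 14.0 against 10.8 and 10.3 CPM; log2 fold change -0.82 ± 0.66, SE), with 68 and 76 control counts (8.75 and 9.41 CPM). Their edgeR adjusted p values were 0.505, 0.44 and 0.461, so none of these differences passed the test. The other 9 mitochondrial enzymes tested ranged from -0.41 for WARS2 to 1.12 for NARS2.

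The classes were also set against each other amino acid by amino acid, as the ratio of cytosolic to mitochondrial counts in the same library, which does not depend on the scaling of libraries. Of 17 pairs 15 could be used, those of SARS2 and VARS2 being left out for shared exons, and EPRS1 is in both the glutamyl and the prolyl pair. The ratio was higher in both AGO2-IP than in both flow-through libraries of the mimic cells for 9 pairs, lower for 1 pair, and overlapped for 5, with a median log2 difference of 0.77. EPRS1 over EARS2 had the largest difference, from 2.54 and 1.12 in the mimic flow-through to 11.6 and 10.3 in the mimic AGO2-IP, and LARS1 over LARS2 went from 4.44 and 1.32 in the mimic flow-through to 12.2 and 9.99 in the mimic AGO2-IP. In both pairs the cytosolic transcript has the lower GC content (EPRS1 42.3% and EARS2 48.9%, LARS1 41.4% and LARS2 50.7%). RARS1 over RARS2, of nearly equal GC content (41.1% and 41.8%), went from 3.45 and 1.96 to 10.3 and 12.7. HARS1 (52.6%, HARS2 50%) and YARS1 (51.3%, YARS2 49.8%) have the higher GC content of their pairs. In the rest of the 9 pairs the cytosolic transcript has the lower. The GC trend described below was not removed from the pair ratios.

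The histidyl pair differed least among the 9, with HARS1 over HARS2 going from 3.29 and 3.29 in the mimic flow-through to 4.37 and 5.07 in the mimic AGO2-IP. IARS1 over IARS2 was the pair in which the mitochondrial transcript gained, from 1.79 and 1.71 in the mimic flow-through to 1.04 and 0.89 in the mimic AGO2-IP. In control cells the ratio was higher in the AGO2-IP than in the flow-through for 10 of the 15 pairs, and for 7 of the 9, the others being TARS1 over TARS2 (11.3 in the flow-through and 8.23 in the AGO2-IP) and YARS1 over YARS2 (23 and 22.4). The pairs share genes and libraries, so their count is a description and not a test. Mimic flow-through 2 had the lowest ratio of all 6 libraries for 10 of the 15 pairs, as the plot of pair ratios by library shows.

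**Figure D3:**
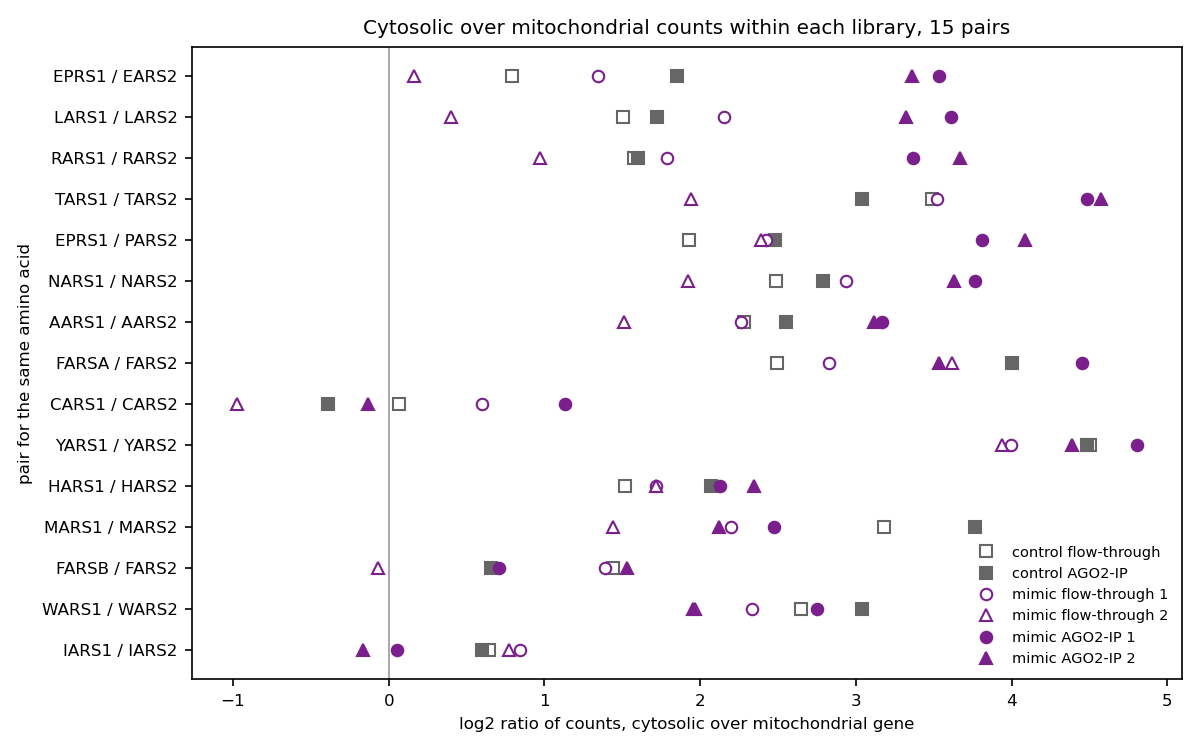
Log2 ratio of the counts of the cytosolic over the mitochondrial gene for each of 15 same-amino-acid pairs, ordered by the mean difference between mimic AGO2-IP and flow-through, with 1 symbol for each of the 6 libraries. Filled purple symbols (mimic AGO2-IP) lie to the right of open purple symbols (mimic flow-through) for 9 pairs and to the left for IARS1 over IARS2.

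Grouped by structure and partners, the enzymes were spread widely in each group. The 7 listed genes of the multisynthetase complex (EPRS1, IARS1, KARS1, LARS1, MARS1, QARS1 and RARS1) had a median log2 fold change of 1.11, from -0.69 for KARS1 to 3.30 for RARS1, and 2 of them were called with the replicate block. The 12 other cytosolic enzymes had a median of 0.84, from -1.81 for VARS1 to 3.05 for HARS1, and 3 were called with it. By catalytic fold, the 17 class I enzymes tested had a median of 0.28 and 2 block calls, and the 16 class II enzymes a median of 0.68 and 4 block calls, with EPRS1, which holds both folds, counted in neither. The ranges of these groups overlapped almost wholly, and no test of the groups was made.

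Of 16 further genes around aminoacylation, listed beside the synthetases, 15 were tested and 0 were called by edgeR with or without the replicate block, 1 having an unadjusted p under 0.05. Their median log2 fold change was 0.32, from -1.79 ± 0.67 (SE) for GATC, a subunit of the mitochondrial amidotransferase that makes Gln-tRNA, to 1.41 ± 0.68 (SE) for DTD1, a deacylase that removes D-amino acids from tRNA. GATC, whose edgeR adjusted p was 0.148, was the gene with the low unadjusted p and was called lower by PyDESeq2. The scaffold proteins of the complex, which bind the enzymes together, were split: AIMP1 stood at 0.19 ± 0.60, AIMP2 at -1.13 ± 0.66 and EEF1E1 at 0.66 ± 1.04 (SE). For AIMP2 both AGO2-IP libraries lay below those of the flow-through, while EEF1E1 had 568 and 26 counts in the flow-through and 505 and 259 in the AGO2-IP, so that its groups overlapped. EEF1A1, the elongation factor that takes charged tRNA to the ribosome, stood at 0.32 ± 0.58 and its mitochondrial counterpart TUFM at 0.74 ± 0.61 (SE).

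The GC content of the transcript moved with these values and with the gap between the mimic flow-through libraries. Over the 34 synthetase genes, the log2 difference of flow-through 2 from flow-through 1 had a Pearson r of 0.65 (Spearman rho 0.70) with GC content, against 0.71 (0.73) over 13066 genes, the points sharing the same 2 libraries. RARS1 (GC 41.1%) differed by -2.27 and VARS1 (GC 61.7%) by 1.83, while HARS1 (GC 52.6%) differed by 0.51. The log2 fold change of AGO2-IP over flow-through had r = -0.50 (rho -0.43) with GC over the synthetase genes and r = -0.50 (rho -0.53) over all genes. The 6 genes called with the block had a median GC of 42.2% (41.1 to 52.6%), while cytosolic and mitochondrial enzymes did not differ much in this respect (medians 49.5% and 50.4%).

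When each library's dependence on GC content was taken out and the replicate block kept, 12 synthetase genes were called higher and 0 lower, where 14.0% of all genes were called higher and 12.7% lower. These were the 6 genes named above with AARS1, EPRS1, MARS1, SARS1, AARS2 and IARS2, and the log2 fold change of HARS1 was then 3.32, that of HARS2 2.57 and that of RARS1 2.99. With the block kept, the removal lowered LARS1 from 2.52 to 1.83, NARS1 from 2.44 to 1.77, TARS1 from 1.93 to 1.33 and EPRS1 from 1.93 to 1.30. VARS1 went from -1.81 to -0.49 when the trend alone was removed. Among transcripts of at least 50% GC the median log2 fold change was 0.72 for 9 cytosolic and 0.14 for 8 mitochondrial enzymes. Among those under 50% it was 1.52 for 10 and 0.28 for 7. The cytosolic median was the higher on both sides of 50%, but these few genes share the same 4 libraries and no test was made. With the trend alone removed the class medians were 1.04 (cytosolic) and 0.46 (mitochondrial). The cause of the GC trend was not tested.

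**Figure D4:**
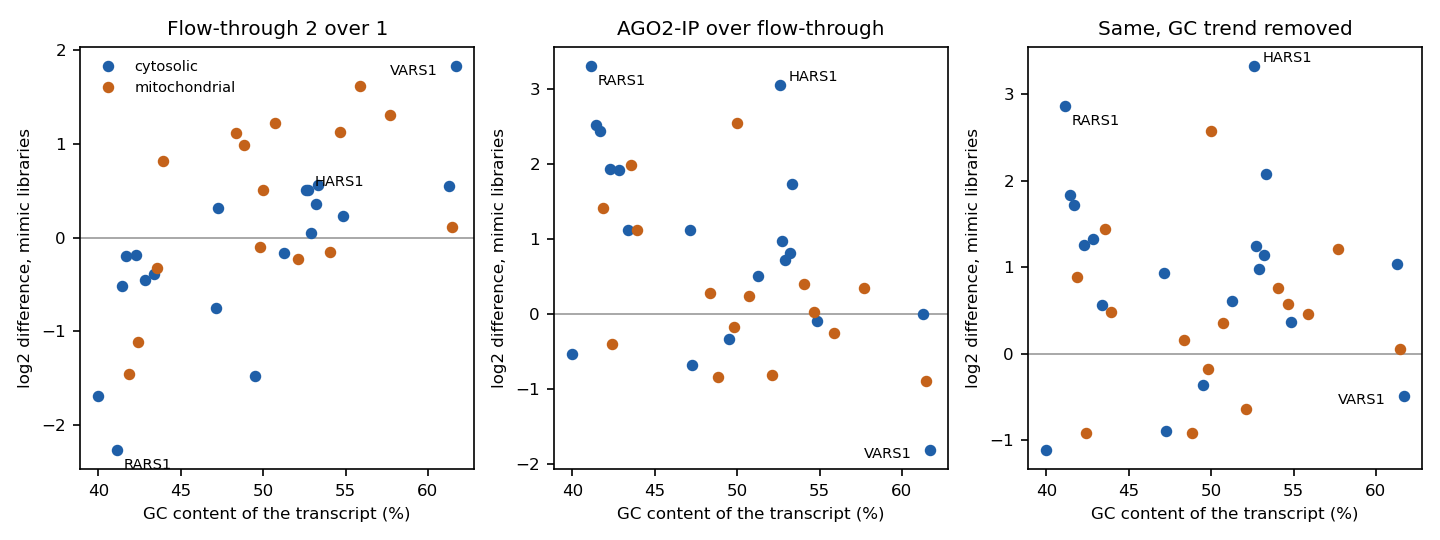
GC content of the transcript in percent against the log2 difference of mimic flow-through 2 from flow-through 1 (left), the log2 fold change of mimic AGO2-IP over flow-through (middle), and the same after the GC trend of each library was removed (right), with a point for each of 34 synthetase genes. The left panel rises and the middle panel falls with GC content (r = 0.65 and -0.50), the right panel shows little slope (r = -0.077), and HARS1 (GC 52.6%) lies second to RARS1 in the middle panel (3.05 and 3.30) and above it in the right panel (3.32 and 2.86).

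In control cells, with 1 library a fraction and no test, the AGO2-IP was set against the flow-through as a log2 ratio of TMM-normalized CPM for genes with at least 200 counts in the pair of libraries. The median ratio was 0.83 over the 19 cytosolic and 0.81 over the 10 mitochondrial enzymes with a value, beside 0.01 over all genes, so the medians of the classes lay close together here. A ratio of at least 1 was found for 9 of 29 genes (15.9% of all genes) and a ratio of at most -1 for FARSB alone (18.1%). The 9 were HARS1, HARS2, AARS1, AARS2, IARS2, IARS1, NARS1, MARS1 and CARS2, with ratios of 2.62, 2.06, 1.54, 1.26, 1.22, 1.17, 1.08, 1.06 and 1.04 in that order. EARS2 had the lowest mitochondrial ratio, -0.09, which was 0.79 with library size alone.

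The control and mimic ratios come from separate libraries, and their sign was the same for 27 of the 29 genes (68.8% of 8225 genes with a value in both). QARS1 (glutaminyl) and CARS2 (mitochondrial cysteinyl) were the exceptions, at -0.10 and -0.25 in mimic cells and 0.09 and 1.04 in control cells, and neither mimic group was free of overlap. The value was higher in mimic than in control cells for 16 of the 29 (55.2%, against 51.9% of all genes). The gap was wide for RARS1 (3.30 against 0.89), TARS1 (1.92 against 0.05) and LARS1 (2.51 against 0.83), and narrow for HARS1 (3.05 against 2.62) and HARS2 (2.55 against 2.06). The mimic values are edgeR estimates, whereas the control values are log2 ratios of TMM-normalized CPM, so the size of a gap depends in part on the measure. By mimic replicate RARS1 gave 2.62 and 4.79. With a single control library for each fraction, none of these gaps could be tested.

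The mimic was then set against the scrambled control within each fraction, again without a test. In the AGO2-IP the median log2 ratio was 0.00022 over the 19 cytosolic and 0.21 over the 14 mitochondrial enzymes with a value, beside 0.02 over all genes. The order of the classes turned with the GC trend removed (0.26 cytosolic and 0.12 mitochondrial) and without mimic AGO2-IP 2 (0.23 and 0.086). A ratio of at least 1 was found for 7 of 33 genes (17.3% of all genes) and of at most -1 for CARS2 alone (17.4%). The 7 were RARS1 (2.28), LARS1 (1.96), NARS1 (1.47), EPRS1 (1.21), HARS1 (1.19), TARS1 (1.11) and HARS2 (1.03), which takes in all 6 genes called with the replicate block. These comparisons use the same mimic AGO2-IP libraries, so that overlap is not independent. For RARS1 the mimic libraries gave 2.33 and 2.22, and for LARS1 1.78 and 2.14.

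WARS1, the cytosolic tryptophanyl enzyme and the only member with a seed match in the 3′ UTR, had the lowest cytosolic ratio in the AGO2-IP, -0.84 (-0.86 and -0.82 by library). Its mean ratio in the flow-through was -0.79, but the mimic libraries gave -0.060 and -1.51, so the low mean came from flow-through 2. Whether the low value is particular to the AGO2-IP was not tested. Its counts were 777 in the control AGO2-IP (96.2 CPM) and 2307 and 1854 in the mimic AGO2-IP (49.4 and 48.8 CPM), with 517 (66.5 CPM) and 4973 and 1306 (106 and 26.9 CPM) in the flow-through libraries. CARS2 was lowest of all at -1.32 (-1.49 and -1.15 by library), with 1409 counts in the control AGO2-IP (174 CPM) and 2698 and 2675 in the mimic AGO2-IP (57.7 and 70.4 CPM), and 354 (45.5 CPM) and 2035 and 4592 (43.3 and 94.6 CPM) in the flow-through. In the AGO2-IP both mimic libraries lay below the control library for both genes.

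In the flow-through the median log2 ratio of mimic over control was 0.24 over 19 cytosolic and 0.53 over 15 mitochondrial enzymes, beside 0.05 over all genes. A ratio of at least 1 was found for 5 of 34 genes (10.0% of all genes), namely FARSA (1.30), AARS2 (1.26), VARS1 (1.15), MARS2 (1.09) and HARS1 (1.01), and of at most -1 for 0 genes (10.2%). AARS2, the mitochondrial alanyl enzyme, had 55 counts (7.08 CPM) in the control and 830 and 1514 (17.7 and 31.2 CPM) in the mimic flow-through, and 258 (31.9 CPM) against 1797 and 1123 (38.4 and 29.5 CPM) in the AGO2-IP. The lowest ratios were -0.81 for GARS1 among the cytosolic enzymes and -0.28 for WARS2, the mitochondrial tryptophanyl enzyme, whose ratio was 0.19 with library size alone, a scaling that moved the median of all genes from 0.05 to 0.52. WARS2 had 82 counts (10.6 CPM) in the control and 988 and 334 (21.0 and 6.88 CPM) in the mimic flow-through, with 94 (11.6 CPM) against 342 and 479 (7.32 and 12.6 CPM) in the AGO2-IP, so that its 2 mimic flow-through libraries lay on opposite sides of 0 (0.26 and -0.82). RARS1 was similar, at 0.83 and -1.41.

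**Figure D5:**
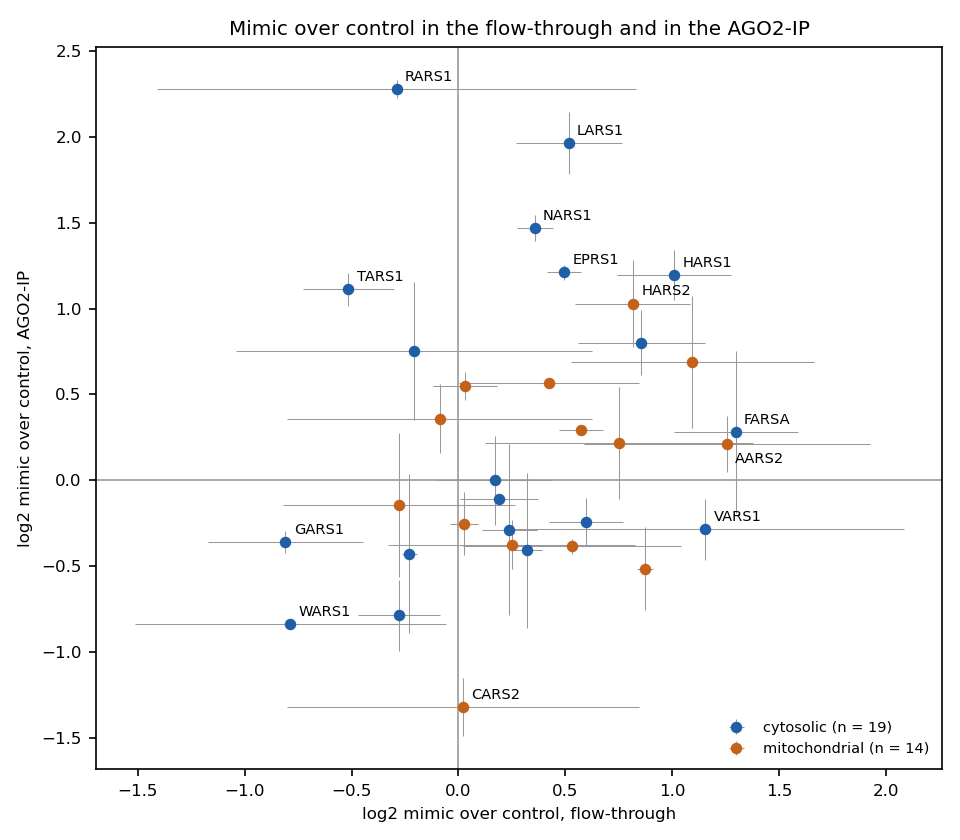
Log2 ratio of mimic over control in the flow-through (horizontal) and in the AGO2-IP (vertical) for 33 synthetase genes, each point the mean of 2 mimic libraries against 1 control library and each bar spanning the values of the 2 mimic libraries. RARS1 (2.28), LARS1 (1.96) and NARS1 (1.47) lie highest in the AGO2-IP, CARS2 lies lowest (-1.32), and the horizontal bars are long for many genes.

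None of the 6 genes with a seed match (the sequences are given above) was among those with the highest log2 fold changes. Their median log2 fold change of mimic AGO2-IP over flow-through was -0.18, from -0.53 for FARSB to 0.72 for CARS1, beside -0.11 over all genes. With the replicate block 0 of the 6 were called, which for so few genes is near the 4.60% of all genes called higher. CARS1 alone of them had both AGO2-IP libraries above both flow-through libraries, as had 28.1% of all genes. By mean CPM per kilobase in the mimic AGO2-IP they ranked from 10th (YARS1) to 33rd (FARSB) in the set. The 28 tested genes without a match had a median of 0.89 and held the 6 calls. With the GC trend removed the values of the matched genes were 0.98 (CARS1), -1.11 (FARSB), 0.37 (QARS1), -0.37 (WARS1), 0.61 (YARS1) and 0.46 (CARS2). QARS1 and CARS2 thereby changed sign. The ratio of mimic over control in the AGO2-IP was below 0 for 5 of the 6 (CARS1 -0.43, QARS1 -0.29, WARS1 -0.84, YARS1 -0.41 and CARS2 -1.32) and 0.75 for FARSB, and below 0 for 10 of the 27 without a match. Of all genes with a value, 5645 of 11467 were below 0, and they were not split by seed match. QARS1, with its 7-base match, gave -0.78 and 0.21 by mimic library, and FARSB 0.35 and 1.16. These values describe 6 genes, and the effect of a match was not tested.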

How the data were processed

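MDA-MB-231 RNA from AGO2-IP and flow-through fractions was sequenced as paired-end, non-stranded libraries. The authors trimmed reads with cutadapt 3.5 and aligned them to GRCh38 with STAR 2.7.11b, per the labels and the study's methods, and deposited the unstranded and stranded counts of reads per gene for 60708 genes. The authors used Ensembl annotation, whose release is not given in the sources used here, and 60507 of the gene IDs matched GENCODE 44, which gave names, transcripts, GC content and lengths. STAR leaves out reads that fit more than 1 place or gene, and 21.4 to 47.2% of read pairs of the mimic libraries and 92.3 and 95.0% of those of the control libraries fell in no gene or in several. Counts of the unstranded column were used, and rows that name no gene were left out.

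The 35 members and the other gene lists were chosen with earlier results of these data known. Mimic AGO2-IP and flow-through libraries (n = 2 each) were compared with edgeR 4.0.16 (quasi-likelihood, TMM, summed count of at least 200, two-sided, Benjamini-Hochberg over 13078 genes), with calls at an adjusted p of at most 0.05 and an absolute log2 fold change of at least 1. A block for the replicate number, PyDESeq2 0.5.4, removal of a GC trend (lowess, span 0.2) and other settings served as alternatives, and the fit was tested on simulated data. The labels give AGO2-IP and flow-through of a biological replicate the same number, and the departures of both libraries of a number from the mean of their fraction correlated over genes (Pearson r 0.32, Spearman rho 0.24). The replicates are stated to be independent, but what was repeated is not given, so p-values measure the spread between these libraries. With the block that spread was largely pooled over genes. Comparisons with the single control library of a fraction are log2 ratios of TMM-normalized CPM with a prior count of 2 and no test. Values are given for every gene called with or without the block, for the 3 highest and 3 lowest of each class, for the highest and lowest control ratios of each class, and for HARS1, HARS2, GARS1 and KARS1. Counting error is largest for VARS2 and SARS2 and for control counts of mitochondrial enzymes, as low as 32 (YARS2), 41 (MARS2), 55 (AARS2) and 59 (HARS2) in the flow-through. Some genes of the aminoacylation list are not reported here. The deposited per-gene tables hold no read of the mimic itself.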

Additional observations from a re-analysis of the deposited data

How the results depend on the processing

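Of 34 synthetase genes tested in the mimic cells, 21 kept the direction of AGO2-IP against flow-through in all 13 alternatives. The 0 genes called higher (0.245% of all genes) became 5 without the filter on low counts (0.960%), 5 with the GC trend removed (3.32%), 6 with the replicate block (4.60%), 12 with the replicate block and the GC trend removed (14.0%), and 9 with PyDESeq2 (6.46%), and stayed at 0 with library size alone, with DESeq2's size factors and with either stranded column. With a library left out the count of genes called higher ranged from 0 to 11 (0 without either AGO2-IP library, 11 without flow-through 1 where 20.2% of all genes were called, and 5 without flow-through 2 where 1.90% were) and that of genes called lower from 0 to 2 (VARS1 and EARS2, without flow-through 1). The cause of these changes was not tested.

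The cytosolic median of the mimic comparison was 1.41 without the filter, 0.85 and 0.80 with the stranded columns, and 0.69 to 1.06 with a library left out. The mitochondrial median ranged from -0.21 (without flow-through 1) to 0.75 (without flow-through 2, where the cytosolic median was 0.90). For control AGO2-IP over flow-through, library size alone gave 1.71 (cytosolic) and 1.69 (mitochondrial), moving with all genes (0.89), and removal of the GC trend gave 0.65 (cytosolic). For mimic over control AGO2-IP the mitochondrial median was 0.081 with library size alone, 0.12 with the GC trend removed, and 0.086 to 0.19 with a library left out, while the cytosolic median was 0.26 with the GC trend removed and -0.13 and 0.23 without AGO2-IP 1 and 2, so that the cytosolic median was the higher with the GC trend removed and without AGO2-IP 2. For mimic over control flow-through, library size alone gave 0.71 (cytosolic) and 0.99 (mitochondrial), leaving out mitochondrially encoded genes 0.10 and removal of the GC trend 0.12 (both cytosolic), and the mitochondrial median ranged from 0.061 (without flow-through 2) to 0.74 (without flow-through 1). Library size alone and GC removal for single genes in the control comparisons were chosen after the data were seen.

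The direction turned for 13 genes in 1 or more settings. FARSA became -0.011 with DESeq2's size factors and with PyDESeq2, -0.017 and -0.040 with the stranded columns and -0.043 with the replicate block. QARS1 became 0.30 without the filter, 0.37 with the GC trend removed and 0.30 with the block as well, CARS2 0.27, 0.46 and 0.52 in the same settings, SARS2 0.048 and 0.15 with the GC trend removed without and with the block, TARS2 -0.16 with the first stranded column and YARS2 0.21 without the filter. With a library left out, the lowest and highest values were -0.55 and 0.35 for FARSA, -1.17 and 0.50 for FARSB, -0.73 and 0.30 for QARS1, -0.93 and 0.54 for WARS1, -0.027 and 0.84 for YARS1, -0.21 and 1.12 for AARS2, -0.89 and 0.75 for CARS2, -0.29 and 0.96 for LARS2, -0.22 and 0.91 for MARS2, -0.47 and 0.67 for TARS2, -0.92 and 0.21 for WARS2 and -0.45 and 0.0044 for YARS2. A fit that leaves a fraction with 1 library assumes that it varies like the other. Depth limits VARS2 and SARS2 and, in control cells, FARS2, MARS2, WARS2 and YARS2, which had no ratio.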

Other observations

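All 5 synthetase genes on chromosome 5 (HARS1, LARS1, RARS1, TARS1 and HARS2) were among the 6 called higher in the mimic AGO2-IP with the replicate block, and of the 29 tested genes on other chromosomes NARS1 was the only one called. Their median log2 fold change was 2.55, against 0.28 for the 29. Over all 604 tested genes of chromosome 5 the share called higher with the block was 7.95% and the median log2 fold change 0.12, against 4.60% and -0.11 over all 13078 genes. The chromosome was looked at after the calls were known, HARS1 and HARS2 are neighbours, and no test was made.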
